A study of Mus musculus with 70 samples.

Results

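The thyroid hormone receptor genes *Thra* and *Thrb* and the genes of their retinoid X receptor (RXR) partners, *Rxra*, *Rxrb* and *Rxrg*, were followed in the mouse pituitary. They were chosen by symbol, together with every transcript row that carries one of these symbols, and with the chromatin peaks at their loci. They make up 5 of 22835 genes and 10 of 29082 transcript rows of the RNA-seq table, and all 5 passed the limit on low values, as did 13145 genes in all. RNA came from C57BL/6J pituitaries of wild type or *Thrb*-deficient (*Thrb*-KO) adult male mice, with 3 pituitaries pooled per library. Hypothyroid mice drank the antithyroid drug methimazole (MMI) with potassium perchlorate for several weeks, and hyperthyroid mice drank the same with T3 added in the final week, so both groups of both genotypes carried the antithyroid treatment. Doses are labelled only on histone ChIP-seq libraries and their IgG controls, which were not analysed here. These labels give 0.05% MMI, 1% perchlorate and, with T3, 0.5 µg per ml. The methods of the paper give the same doses. Each treatment had 4 wild type and 5 *Thrb*-KO libraries. TRβ binding had been mapped in untreated mice by chromatin affinity purification (ChAP-seq), in which a tag on the endogenous TRβ protein is biotinylated by the ligase BirA. The tagged HAB;BirA mice and the untagged BirA control mice gave 3 libraries each for pituitary, from pools of 12 glands, and 3 each for cerebral cortex, and the authors merged libraries before calling peaks. Because both the TRβ1 and the TRβ2 protein carry the tag, its peaks do not tell them apart. A further source was a list of ATAC-seq peaks, that is, open chromatin, that differ between hypothyroid and hyperthyroid mice in nuclei of cells marked by a *Thrb*2-Cre driver.

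Thyroid hormone receptors are nuclear receptors that sit on DNA with or without their ligand, T3, and usually pair there with an RXR. Without T3 the pair recruits corepressors, and with T3 it recruits coactivators. *Thra* encodes TRα1, the T3 receptor of many tissues, as well as the non-hormone-binding TRα2. *Thrb* encodes TRβ1 and TRβ2, and TRβ2 is known from the pituitary, where it serves negative feedback of T3 on thyrotropin. *Rxra* and *Rxrb* are widely expressed, whereas *Rxrg* is more restricted and is present in thyrotrophs, the pituitary cells that make thyrotropin.

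The RNA libraries held 21453548 to 55273749 reads (median 34673225), at which 3 reads equal 0.0543 to 0.140 CPM, the reads of a transcript scaled to the size of the library. They fell into sets told apart by *Lars2* RNA, which was 2571 to 3420 CPM in replicates 1 and 2 of every group (8 libraries) and 53.2 to 95.1 CPM in replicates 3 to 5 (10 libraries). Replicate 3 of hyperthyroid wild type stood apart in composition, with a TMM scaling factor of 0.849. Values within each set, and values without that library, are therefore given where they bear on a result. Thyrotroph markers *Tshb*, *Cga* and *Trhr* were present in every group, and their summed RNA was 8941 to 17535 CPM in hypothyroid and 1197 to 2077 CPM in hyperthyroid wild type. In *Thrb*-KO the same sum was 8727 to 11244 CPM in hypothyroid and 1458 to 1579 CPM in hyperthyroid libraries. All 3 markers fell with T3 in both genotypes, and as in any bulk tissue, fewer cells of a type and less RNA per cell cannot be told apart.

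*Thrb*, the gene targeted in the *Thrb*-KO mice, fell 2.49-fold with T3 in wild type and showed no such difference in *Thrb*-KO. Its RNA was 239, 242, 249 and 297 CPM in the 4 hypothyroid wild type libraries and 124, 117, 72.4 and 103 CPM in the hyperthyroid wild type libraries. In *Thrb*-KO it was 272, 295, 278, 271 and 239 CPM in hypothyroid libraries. It was 288, 301, 239, 245 and 228 CPM in hyperthyroid *Thrb*-KO libraries. Among all genes tested, the 2 groups compared lay apart for 17.4% for T3 in wild type and for 11.3% for genotype under T3. For *Thrb*, every hyperthyroid wild type library lay below every library of the other 3 groups, which overlapped one another. Thus *Thrb*-KO libraries carried *Thrb* RNA at the level of hypothyroid wild type, and the RNA row does not mark the deletion. Where the deleted part lies relative to the counted reads is not given in the sources used here, so the level checks nothing about the genotype labels.

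**Figure D1:**
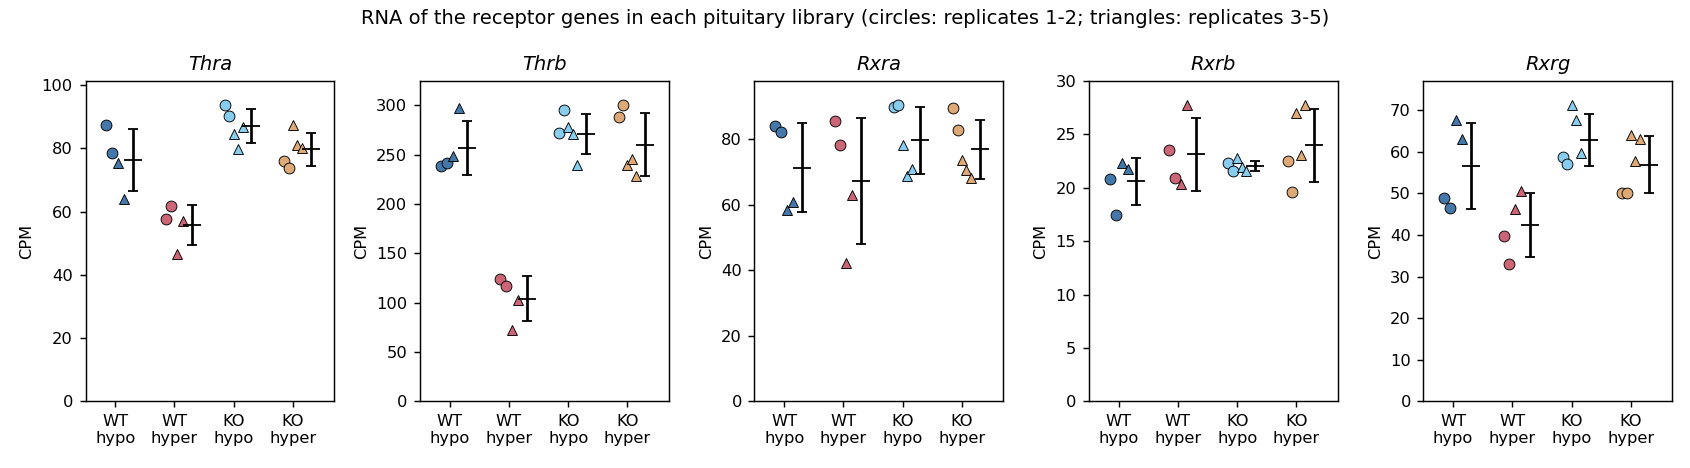
RNA of *Thra*, *Thrb*, *Rxra*, *Rxrb* and *Rxrg* in CPM (vertical axis, linear and starting at 0, 1 panel per gene) in the 18 pituitary libraries by group, with circles for replicates 1 and 2, triangles for replicates 3 to 5 and bars for the group mean ± SD. Hyperthyroid wild type *Thrb* sits at 72.4 to 124 CPM, below all libraries of the other groups, while *Rxra* and *Rxrb* groups overlap.

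Means were 257 ± 27.3 CPM (SD, n = 4) in hypothyroid and 104 ± 22.8 CPM (SD, n = 4) in hyperthyroid wild type, a log2 change of −1.32 (SE 0.139, limma, adjusted p = 1.27e-06). The size of this change exceeded that of 98.3% of the genes tested. In *Thrb*-KO the means were 271 ± 20.1 CPM (SD, n = 5) and 260 ± 32.0 CPM (SD, n = 5), a log2 difference of −0.06 (SE 0.124, limma, adjusted p = 1.00). The T3 response therefore differed between genotypes by 1.26 on the log2 scale (SE 0.186, limma interaction, adjusted p = 3.22e-04). Between genotypes, *Thrb* RNA was 2.52-fold higher in *Thrb*-KO than in wild type under T3 (log2 1.33, SE 0.132, limma, adjusted p = 1.42e-06). In hypothyroid mice the genotypes differed by 0.08 on the log2 scale (SE 0.132, limma, adjusted p = 0.818).

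*Thrb* was the only one of the 5 genes called in these contrasts, where a call needs an adjusted p under 0.05 and at least 1.5-fold. It was called in 3 of the 5 contrasts. Of all genes tested, 9.46% were called for T3 in wild type, 4.26% for the difference of the responses and 4.86% for genotype under T3. No member was called for T3 in *Thrb*-KO, where 1.01% of genes were, nor for genotype in hypothyroid mice, where 3.02% were. For these 2 contrasts limma gave 0 members at an unadjusted p under 0.05, and edgeR and DESeq2 on recovered reads called 0.

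The *Thrb* response held in both sets of libraries. In replicates 1 and 2 the wild type change was −0.99 (log2, limma, adjusted p = 3.75e-08), and in replicates 3 to 5 it was −1.64 (adjusted p = 2.41e-05). The difference between genotypes was 1.05 and 1.50 in these sets (adjusted p = 4.69e-06 and 0.00140). Without replicate 3 of hyperthyroid wild type, the library with the lowest *Thrb* RNA, the wild type change was −1.15 and the difference between genotypes 1.09. Thyrotroph markers moved with this result in wild type, while in *Thrb*-KO they fell and *Thrb* RNA passed no test. The log2 change of *Tshb* was −4.95 in wild type and −4.83 in *Thrb*-KO, that of *Cga* was −2.55 and −2.11, and that of *Trhr* was −4.08 and −2.04. Their part in the *Thrb* result was not tested.

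**Figure D2:**
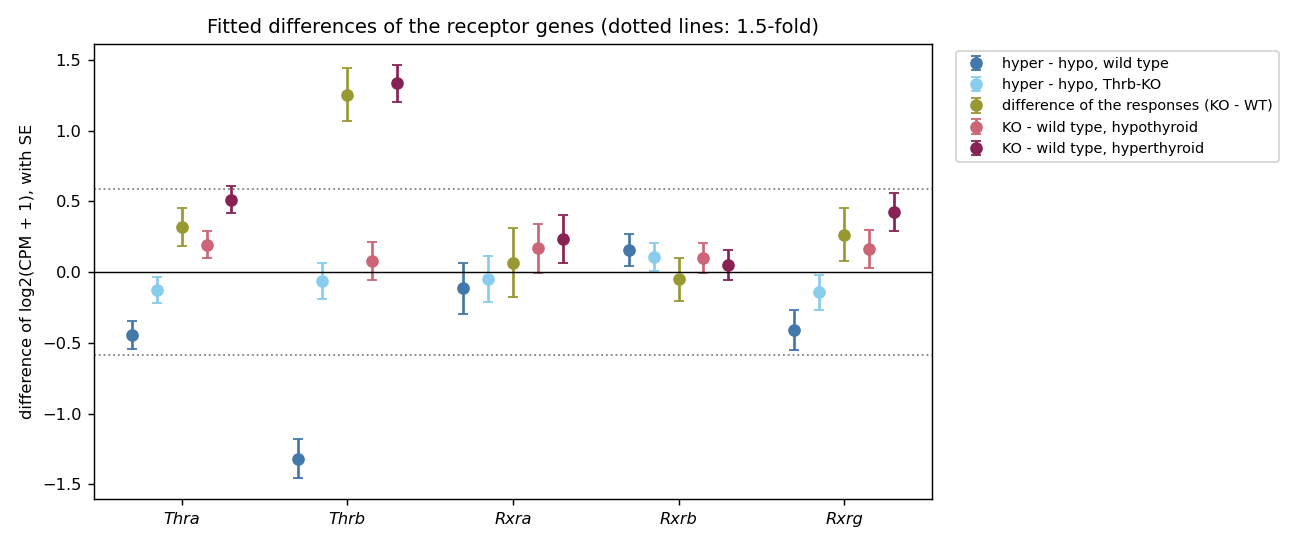
Fitted difference of log2(CPM + 1) with its standard error (vertical axis) for each of the 5 genes (horizontal axis) in the 5 contrasts, 1 colour per contrast, with dotted lines at 1.5-fold. *Thrb* alone is called, at −1.32 for T3 in wild type, 1.26 for the difference of the responses and 1.33 for genotype under T3.

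The 2 *Thrb* transcript rows, NM_009380 and NM_001113417, carried nearly the same values, within 0.0848 to 7.90% of the larger in a library. Both were called alike, at −1.32 and −1.27 (log2) for T3 in wild type, 1.26 and 1.24 for the difference of the responses, and 1.33 and 1.37 for genotype under T3. Calls over all transcript rows made up 9.29%, 4.24% and 4.85% of 18140 rows in these contrasts. The small difference between the rows, NM_009380 minus NM_001113417, was looked at after its values were seen, and has no test. It was 11.9, 10.96, 8.61 and 15.3 CPM in hypothyroid wild type and −1.12, −1.10, −0.08 and 8.14 CPM in hyperthyroid wild type. The *Thrb*-KO values were 2.73 to 7.21 CPM in 5 hypothyroid libraries and −2.66 to −0.24 CPM in 5 hyperthyroid libraries. In CPM, hypothyroid libraries were thus above hyperthyroid libraries without overlap in both genotypes, in wild type by a narrow margin. As a percent of NM_009380, the wild type groups overlapped, at 3.46 to 5.16% in hypothyroid and −0.94 to 7.90% in hyperthyroid libraries. The *Thrb*-KO groups lay apart on this scale too, at 0.98 to 2.65% and −1.16 to −0.08%. Which receptor isoform each row encodes is not given in the sources used here.

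At the *Thrb* locus (mm9 chr14:18493474-18870602, plus strand) TRβ-HAB peaks lay in introns of the gene itself. The strongest of 3 pituitary peaks within 20 kb of the gene, at chr14:18506801-18507150, lay in an intron 13327 bp downstream of the first annotated start. It held 57 reads from HAB;BirA and 4 from control pituitaries, more HAB;BirA reads than 94.3% of the 8051 pituitary peaks, whose medians were 18 and 2. A T3-regulated ATAC peak at chr14:18506799-18507156 covered it almost base for base. A further ATAC peak lay nearby, at chr14:18507818-18507921. The remaining intronic pituitary peaks held 28 and 2 reads at chr14:18528251-18528700, and 13 and 1 reads at chr14:18666151-18666400, and neither overlapped an ATAC or cortex peak. Direction and size of the differences are absent from the ATAC list. The paper reports chromatin opening with T3 at a TRβ-bound site of the *Thrb* locus. Its text gives no coordinates, so that site was not matched to a peak here.

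The first 300 bases of the strongest intronic peak are shown because they hold the sequence feature that TR and RXR pairs are known to bind, a direct repeat of AGGTCA with a spacer of 4 bases. Repeats were sought on both strands with at most 2 mismatches over the 12 repeat bases, and half-sites found are in capitals. This mm9 sequence is read on the plus strand, so the first pair of half-sites reads forwards and the second, which lies on the minus strand, reads as its reverse complement.

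*Thrb* intron, chr14:18506801-18507100 (+): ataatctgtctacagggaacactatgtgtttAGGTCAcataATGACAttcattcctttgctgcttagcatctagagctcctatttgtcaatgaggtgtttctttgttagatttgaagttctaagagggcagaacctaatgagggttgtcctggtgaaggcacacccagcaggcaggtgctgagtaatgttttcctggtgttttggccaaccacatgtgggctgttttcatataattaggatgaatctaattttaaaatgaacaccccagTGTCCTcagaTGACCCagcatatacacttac

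Read along the strand of the repeat, the second pair is GGGTCA and AGGACA, at chr14:18507070-18507085 on the minus strand, with 10 of 12 bases matched. The first pair, AGGTCA and ATGACA at chr14:18506832-18506847 on the plus strand, also matched 10 of 12 bases. Of all pituitary peaks, 20.9% held such a repeat, against 3.58% of regions of the same lengths 10 kb away. The share was 30.9% among the 1776 ATAC peaks, against 3.49% of their shifted regions.

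A stronger peak lay outside the 20 kb limit, 27774 bp upstream of the annotated gene, where the nearest annotated start was that of *Thrb*. The pituitary peak at chr14:18465251-18465700 held 64 HAB;BirA and 2 control reads, more than 95.9% of pituitary peaks. A cortex peak at chr14:18465451-18465950 with 60 and 1 reads overlapped it, and held more reads than 98.8% of the 5164 cortex peaks. An ATAC peak at chr14:18465410-18465842 overlapped both. This region thus appeared in all 3 lists, whereas the intronic peak appeared in the pituitary and ATAC lists but not in the cortex list. The closest match to the repeat there is shown for comparison with the intron, with 20 bases on each side and half-sites in capitals, and with 9 of 12 bases matched it was outside the limit of 2 mismatches.

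*Thrb* upstream, chr14:18465568-18465623 (+): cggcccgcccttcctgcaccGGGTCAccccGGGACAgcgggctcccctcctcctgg

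**Figure D3:**
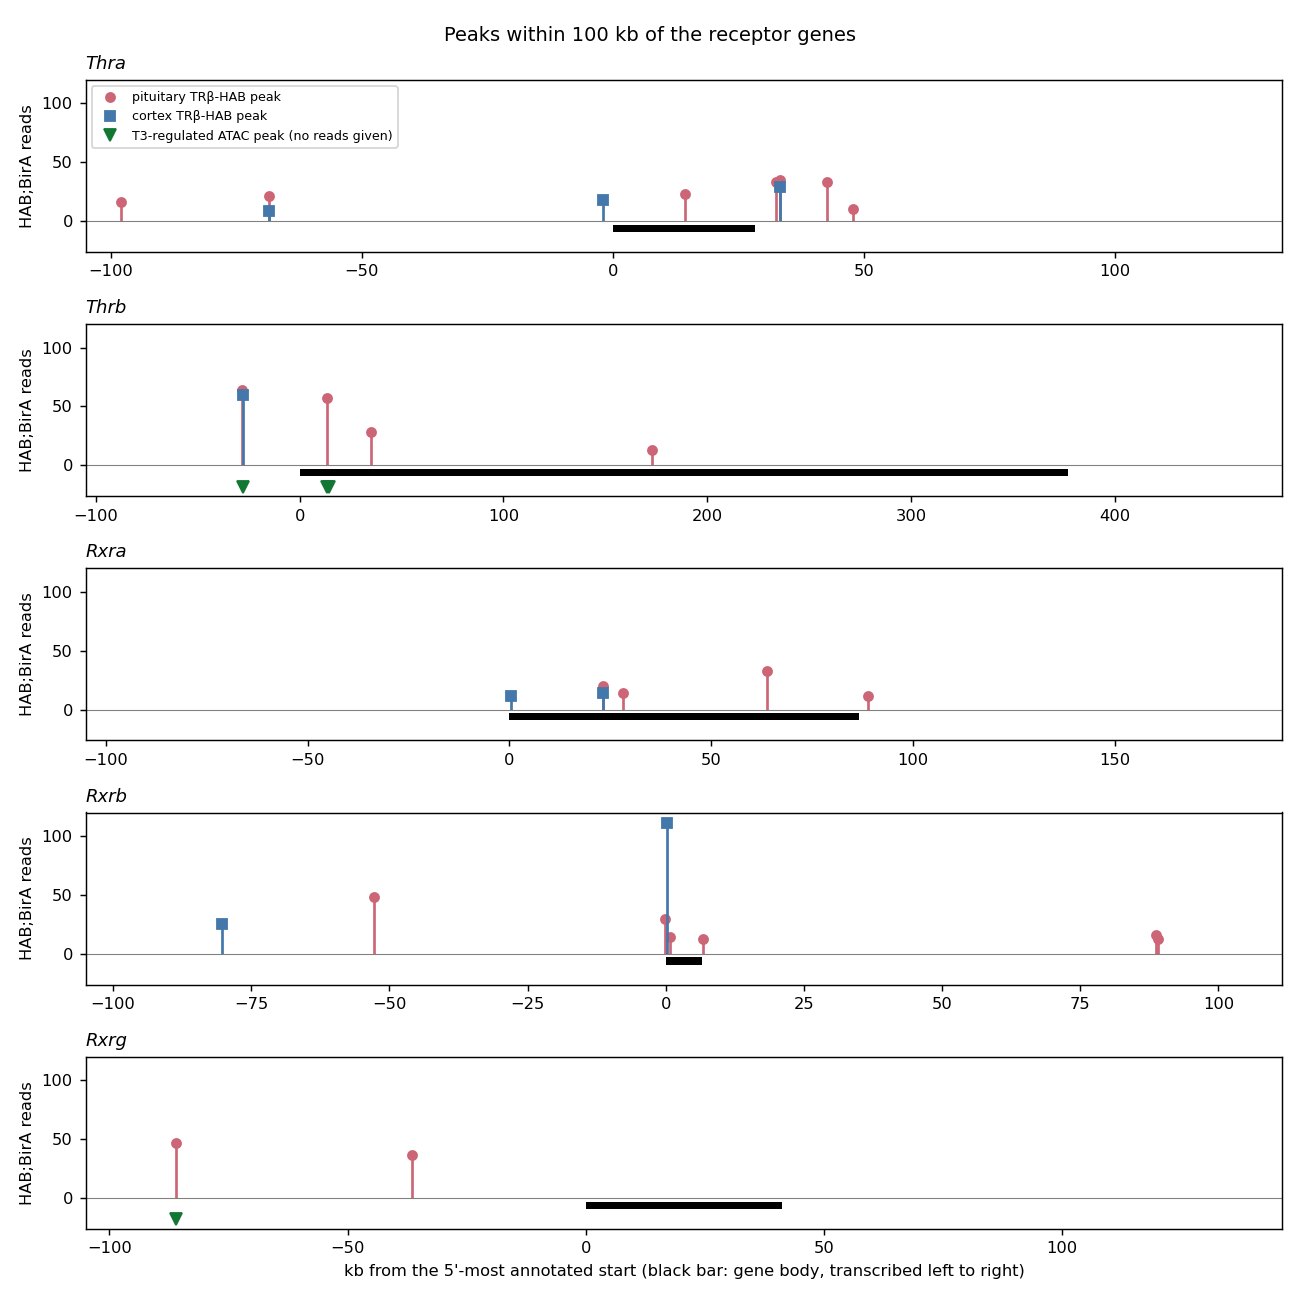
Peaks at the 5 loci by distance from the first annotated start of each gene (horizontal axis, kb, positive downstream, gene body drawn as a black bar), 1 panel per gene, with the height giving HAB;BirA reads of pituitary (circles) and cortex (squares) peaks, and triangles below the line marking T3-regulated ATAC peaks, which have no read number. *Thrb* carries a pituitary and an ATAC peak together 13327 bp downstream and in all 3 lists 27774 bp upstream, and *Rxrg* has no peak within 20 kb of the gene.

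*Thra*, the gene of the other T3 receptor, was also lower with T3 in wild type, by less than the 1.5-fold that a call needs. Its RNA was 87.5, 78.6, 75.3 and 64.1 CPM in hypothyroid wild type and 57.6, 61.8, 46.8 and 57.0 CPM in hyperthyroid wild type. *Thrb*-KO libraries held 93.8, 90.2, 84.6, 79.8 and 86.9 CPM when hypothyroid and 75.9, 73.9, 87.5, 81.2 and 80.1 CPM when hyperthyroid. The wild type groups did not overlap, and neither did the hyperthyroid groups of the 2 genotypes, whereas the *Thrb*-KO groups overlapped. Groups failed to overlap for 17.4% of all genes for T3 in wild type and for 11.3% for genotype under T3.

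The wild type change of *Thra* was −0.44 on the log2 scale (SE 0.0992, limma, adjusted p = 0.00305), or 1.36-fold lower, from 76.4 ± 9.68 to 55.8 ± 6.39 CPM (SD, n = 4 each). An adjusted p under 0.05 at any size was reached by 19.3% of genes in this contrast. Under T3, *Thra* RNA was 1.43-fold higher in *Thrb*-KO than in wild type (log2 0.51, SE 0.0941, limma, adjusted p = 0.00105), where 12.1% of genes passed. The T3 difference in *Thrb*-KO was −0.13 (SE 0.0887, adjusted p = 1.00), between means of 87.1 ± 5.35 and 79.7 ± 5.26 CPM (SD, n = 5 each). The difference of the responses was 0.32 (SE 0.133), with an unadjusted limma p of 0.0278 and an adjusted p of 0.234, so a different response of *Thra* between genotypes was not shown. Within sets, the wild type change was −0.47 in replicates 1 and 2 and −0.42 in replicates 3 to 5. The *Thrb*-KO difference was −0.29 in the first set (adjusted p = 0.0296) and −0.01 in the second. The genotype difference under T3 was 0.32 and 0.67, and the latter met the call (adjusted p = 0.00235).

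*Thra* (mm9 chr11:98601952-98630320, plus strand) ends over *Nr1d1*, the gene of the circadian repressor REV-ERBα, which lies on the opposite strand. Whether the counting used strand is not stated, so reads of the shared end cannot be assigned to one gene with certainty. *Nr1d1* RNA averaged 196 CPM in hypothyroid and 138 CPM in hyperthyroid wild type (limma, adjusted p = 0.0119, under 1.5-fold), and 205 and 166 CPM in *Thrb*-KO. It was thus lower in the same wild type group as *Thra*, and its part in the *Thra* result was not tested.

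Within 20 kb of *Thra* there were 5 pituitary and 2 cortex TRβ-HAB peaks and no T3-regulated ATAC peak. One pituitary peak, chr11:98616151-98616700 with 23 HAB;BirA and 2 control reads, lay in a *Thra* intron. The peaks at chr11:98634351-98634700 (33 and 2 reads) and chr11:98635051-98635500 (35 and 8 reads) lay in introns of *Nr1d1*, and a cortex peak of 29 and 5 reads overlapped the latter. The remaining 2 pituitary peaks, with 33 and 3 and with 10 and 1 reads, were intergenic. The second cortex peak, of 18 and 2 reads at chr11:98599651-98600350, lay 1602 bp upstream of *Thra*. The repeat found in the first *Nr1d1* intronic peak is shown because it was the only other one at the 5 loci within the limits of distance and mismatches, with 10 of 12 bases matched and half-sites in capitals.

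*Thra* and *Nr1d1* locus, chr11:98634433-98634488 (+): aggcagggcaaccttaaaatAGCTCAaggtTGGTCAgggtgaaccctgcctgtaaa

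The ratio of the 2 receptor RNAs was followed within each library, where scaling cancels. *Thra* had 1 transcript row, and whether it counts TRα1 or TRα2 RNA is not given in the sources used here. In *Thrb*-KO the *Thrb* RNA comes from the targeted gene. The ratio is thus one of gene RNAs, not of working T3 receptors. The log2 ratio of *Thrb* to *Thra* was 1.45, 1.62, 1.72 and 2.21 in hypothyroid wild type and 1.10, 0.92, 0.63 and 0.85 in hyperthyroid wild type. The *Thrb*-KO ratios were 1.53, 1.71, 1.71, 1.76 and 1.46 in hypothyroid and 1.92, 2.02, 1.45, 1.59 and 1.51 in hyperthyroid libraries. All 4 hyperthyroid wild type libraries lay below the other 14. The wild type means differed by −0.87 (SE 0.191, two-sided exact permutation p = 0.0286, adjusted over 4 comparisons 0.0571), and the hyperthyroid genotypes by 0.82 (SE 0.151, exact permutation p = 0.0159, adjusted 0.0571). These are the smallest p-values that 4 against 4 and 5 against 4 libraries can give, and neither passed 0.05 after adjustment. In *Thrb*-KO the T3 difference was 0.06 (exact permutation p = 0.595, adjusted 0.595), and between hypothyroid genotypes it was −0.12 (exact permutation p = 0.587, adjusted 0.595). Within sets, the wild type difference was −0.52 in replicates 1 and 2 and −1.23 in replicates 3 to 5, and in *Thrb*-KO it was 0.35 and −0.13.

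Levels of different genes were compared per kb, as CPM divided by the longest coding transcript of GENCODE, an approximation since the lengths the authors counted over were not used here. In hypothyroid wild type the order was *Thrb* at 42.2, *Thra* at 31.1, *Rxrg* at 26.8, *Rxra* at 14.6 and *Rxrb* at 7.85 CPM per kb. In hyperthyroid wild type it was *Thra* at 22.7, *Rxrg* at 20.1, *Thrb* at 17.1, *Rxra* at 13.7 and *Rxrb* at 8.82 CPM per kb. Only *Thra* and *Rxrg* overlapped as neighbours in the first order, whereas each neighbouring pair overlapped in the second. Both *Thrb*-KO groups kept the hypothyroid wild type order, led by *Thrb* at 44.5 and 42.8 CPM per kb, and there too *Thra* and *Rxrg* were the only overlapping neighbours. *Thrb* thus stood first in 3 groups and at place 3 in hyperthyroid wild type.

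**Figure D4:**
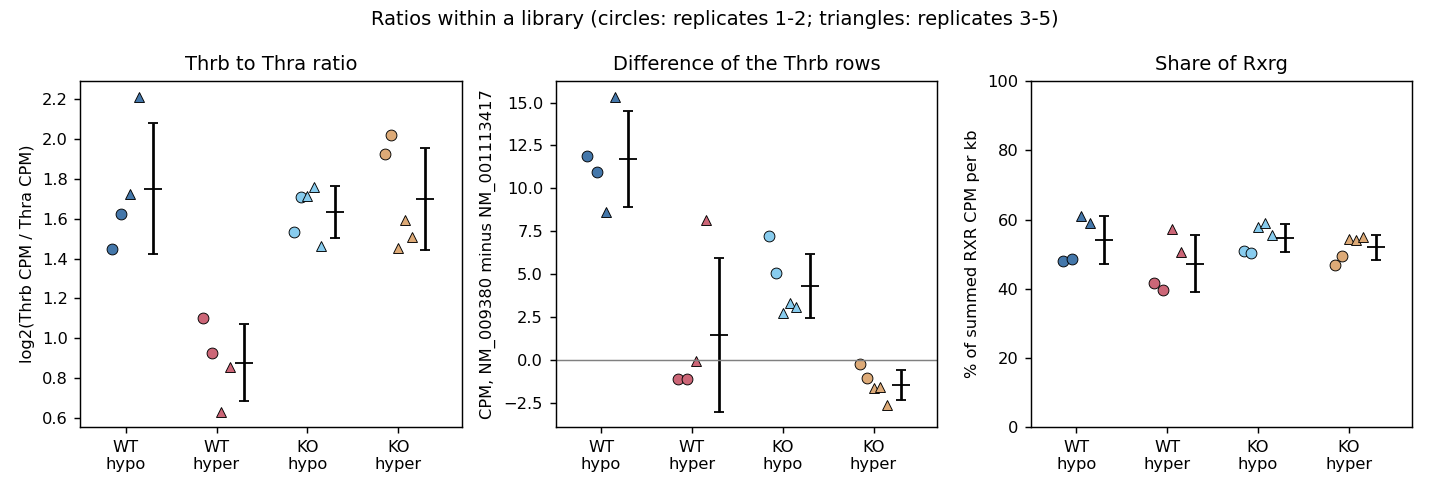
Per library, with the group mean ± SD: log2 ratio of *Thrb* to *Thra* RNA (left), CPM of *Thrb* row NM_009380 minus row NM_001113417 (middle), and share of *Rxrg* in the RNA of the 3 RXR genes in percent of CPM per kb (right), with circles for replicates 1 and 2 and triangles for replicates 3 to 5. The ratio is 0.63 to 1.10 in hyperthyroid wild type, below all other libraries, the row difference is lower in hyperthyroid than in hypothyroid libraries of the same genotype, and the *Rxrg* share overlaps between groups.

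Of the RXR genes, *Rxrg* alone had an adjusted p under 0.05, at less than 1.5-fold. Its RNA was 49.0, 46.6, 67.7 and 63.2 CPM in hypothyroid wild type and 39.7, 33.1, 46.1 and 50.6 CPM in hyperthyroid wild type. In *Thrb*-KO it was 58.6, 57.1, 71.3, 67.7 and 59.6 CPM in hypothyroid and 50.0, 50.0, 64.0, 57.7 and 63.0 CPM in hyperthyroid libraries. Groups overlapped in every contrast, and in wild type each hyperthyroid library was lower than both hypothyroid libraries of its own set. The wild type difference was −0.41 on the log2 scale (SE 0.140, limma, adjusted p = 0.0486), or 1.33-fold lower, and that between genotypes under T3 was 0.43 (SE 0.133, adjusted p = 0.0424). In *Thrb*-KO the T3 difference was −0.14 (SE 0.125, adjusted p = 1.00), and the responses differed by 0.27 (SE 0.188, adjusted p = 0.647).

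The *Rxrg* values sat close to the threshold and crossed it with the method. For T3 in wild type the adjusted p was 0.127 with TMM scaling, 0.129 with edgeR and 0.109 with DESeq2, and for genotype under T3 it was 0.139, 0.157 and 0.125. With 1 library left out it ranged from 0.0225 to 0.169 in wild type. Within sets the wild type difference was −0.39 in replicates 1 and 2 (limma, adjusted p = 0.00251) and −0.43 in replicates 3 to 5 (adjusted p = 0.0230). Of the 2 *Rxrg* rows, NM_009107 gave −0.41 (adjusted p = 0.0485) and NM_001159731 gave −0.47 (adjusted p = 0.130) for T3 in wild type.

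*Rxra* and *Rxrb* passed no test in any of the 5 contrasts. *Rxra* averaged 71.4 ± 13.6 and 67.3 ± 19.2 CPM (SD, n = 4 each) in hypothyroid and hyperthyroid wild type, and 79.7 ± 10.2 and 77.0 ± 9.002 CPM (SD, n = 5 each) in *Thrb*-KO. Its libraries ranged from 42.2 CPM, in replicate 3 of hyperthyroid wild type, to 90.6 CPM, and replicates 1 and 2 were the 2 highest libraries of each group. The T3 difference of *Rxra* was −0.11 in wild type (SE 0.180, limma, adjusted p = 0.774) and −0.05 in *Thrb*-KO (SE 0.161, adjusted p = 1.00). *Rxrb* averaged 20.6 ± 2.16 and 23.1 ± 3.39 CPM (SD, n = 4 each) in wild type and 22.1 ± 0.505 and 24.0 ± 3.40 CPM (SD, n = 5 each) in *Thrb*-KO. Single *Rxrb* libraries spanned 17.5 to 27.8 CPM, and the groups overlapped. Its T3 difference was 0.16 in wild type (SE 0.114, limma, adjusted p = 0.430) and 0.11 in *Thrb*-KO (SE 0.102, adjusted p = 1.00). The 4 *Rxrb* rows lay within 2.99 to 12.4% of the highest in a library.

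Per kb, *Rxrg* made up 54.2 ± 6.88% of RXR RNA in hypothyroid and 47.2 ± 8.17% in hyperthyroid wild type (SD, n = 4 each), and 54.7 ± 3.93% and 51.9 ± 3.62% in *Thrb*-KO (SD, n = 5 each). The T3 differences were −6.95 percentage points in wild type and −2.73 in *Thrb*-KO (two-sided exact permutation p = 0.286 and 0.262, both 0.381 after adjustment over 4 comparisons). Between libraries of the same replicate number, the share was lower under T3 in 4 of 4 wild type pairs, with differences of −8.89 to −3.89 points, and in 5 of 5 *Thrb*-KO pairs, with differences of −4.82 to −0.53 points. Within these pairs the exact permutation p was 0.125 and 0.0625, the smallest that 4 and 5 pairs can give, and 0.25 for both after adjustment over 4 comparisons. The differences thus passed neither test, and the paired design could not reach 0.05. With 1 library left out the wild type difference ranged from −10.3 points, without replicate 3 of the hyperthyroid group, to −4.41 points, without its replicate 2. Genotypes differed by 0.49 points in hypothyroid and 4.70 points in hyperthyroid mice (exact permutation p = 0.937 and 0.270, adjusted 0.937 and 0.381). The latter difference was 7.51 points in replicates 1 and 2 and 0.62 points in replicates 3 to 5, and with 1 library left out it ranged from 2.17, without replicate 2 of hyperthyroid wild type, to 8.03, without replicate 3 of that group.

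*Rxra* held 29.9 ± 7.32% and 32.1 ± 8.68% of RXR RNA in hypothyroid and hyperthyroid wild type (SD, n = 4 each), with overlapping groups. The *Rxrb* share was 14.7 to 16.4% in the 4 hypothyroid and 19.9 to 22.3% in the 4 hyperthyroid wild type libraries, with means of 15.9 ± 0.849% and 20.6 ± 1.13% (SD). These groups lay apart, while in *Thrb*-KO they overlapped, at 14.8 to 16.2% in 5 hypothyroid and 15.5 to 19.5% in 5 hyperthyroid libraries. The *Rxrb* share was singled out after its values were seen and has no test.

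At the RXR loci TRβ-HAB peaks lay at *Rxra* and *Rxrb* but not within 20 kb of *Rxrg*. *Rxra* (mm9 chr2:27531960-27618477, plus strand) had 4 pituitary peaks, of which the strongest, with 33 HAB;BirA and 3 control reads at chr2:27595651-27596100, lay over the start of a noncoding transcript of the gene. An intronic peak at chr2:27555151-27555400 held 20 and 0 reads, and overlapped a cortex peak of 14 and 1 reads. The other 2 held 14 and 2 reads in an intron, and 12 and 0 reads 2174 bp beyond the gene. A second cortex peak of 12 and 1 reads lay at chr2:27532201-27532650. *Rxrb* (mm9 chr17:34168757-34175338, plus strand) had 3 pituitary peaks. The one at chr17:34168551-34168800, with 30 and 1 reads, covered the starts of *Rxrb* and of the zinc transporter gene *Slc39a7*, which faces away from it. The other 2 held 14 and 0 reads in an *Rxrb* intron and 13 and 0 reads 113 bp beyond its end. A single cortex peak at chr17:34168301-34169700, with 111 and 12 reads, covered the first 2 of these and held more reads than 99.7% of cortex peaks. No T3-regulated ATAC peak lay within 20 kb of either gene.

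*Rxrg* (mm9 chr1:169528515-169569754, plus strand) had pituitary peaks only farther away. A peak of 37 and 1 reads lay 36315 bp upstream, at chr1:169491901-169492200. A peak of 47 and 9 reads lay 85815 bp upstream, at chr1:169442301-169442700, where the nearest annotated start was that of *Lrrc52*. The latter overlapped a T3-regulated ATAC peak at chr1:169442230-169442585. Its repeat is shown because it was the closest match to the consensus near *Rxrg*, read on the minus strand with half-sites in capitals and 10 of 12 bases matched.

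*Rxrg* upstream, chr1:169442473-169442528 (−): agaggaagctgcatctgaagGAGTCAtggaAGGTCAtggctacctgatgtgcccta

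In all, 15 of 8051 pituitary peaks, 5 of 5164 cortex peaks and 2 of 1776 ATAC peaks lay within 20 kb of the 5 genes. A pituitary peak lay within this distance of 4 of the 5 genes, as it did for 41.3% of 12898 tested genes that could be placed on mm9. A cortex peak lay near 3 of the 5, against 34.9% of genes, and an ATAC peak near *Thrb* alone, against 7.79%. Of the 15 pituitary peaks, 4 overlapped a cortex peak and 1 an ATAC peak, where 11.1% and 10.8% of all pituitary peaks did so. A repeat within 2 mismatches was found in 2 of the 15, both described above, and in none of the 5 cortex peaks, against 9.3% of all cortex peaks. Libraries were merged for these lists, so peak reads have no replicate error, and the lists do not show whether binding changed with T3.

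The genes whose RNA followed each member most closely were sought by Pearson correlation over the 18 libraries, after centring log2 values within each library set. For *Thrb* they were *Efemp1* (r = 0.980), *Ccrn4l* (r = 0.973), the circadian deadenylase nocturnin, and *2010011I20Rik* (r = 0.969). *Efemp1*, an extracellular matrix glycoprotein, averaged 129 and 74.8 CPM in hypothyroid and hyperthyroid wild type, and 142 and 134 CPM in *Thrb*-KO. For *Thra* they were *Arf3* (0.973), *Ndrg1* (0.971) and *Zfp365* (0.964), and for *Rxrg* they were *Ap3m2* (0.940), *LOC329427* (0.935) and *Tmem179* (0.935). *Rxra* was closest to *Mlxip* (0.977), *Prrc2b* (0.977) and *Tnrc6c* (0.976), and *Rxrb* to *Med26* (0.914), *Vps37c* (0.911) and *Dus3l* (0.909). Between members, r was 0.880 for *Thrb* and *Rxrg*, 0.837 for *Thra* and *Thrb* and 0.812 for *Thra* and *Rxrg*, while *Thrb* and *Rxrb* gave −0.0984. These correlations pool the 4 groups and libraries of unequal depth, and describe likeness only.

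RXR also pairs with other nuclear receptors, and 10 of 14 listed partners could be tested. With T3 in wild type 3 of the 10 rose and none fell, where 9.46% of all genes tested were called in either direction. Their median log2 difference was 0.14, beside −0.04 over all genes. *Vdr*, the vitamin D receptor, averaged 15.8 CPM in hypothyroid and 43.1 CPM in hyperthyroid wild type (log2 1.33, SE 0.196, limma, adjusted p = 5.95e-05), but 2.05 and 2.83 CPM in *Thrb*-KO. *Ppard*, a fatty acid receptor, averaged 36.5 and 85.4 CPM in wild type (log2 1.19, adjusted p = 2.56e-07) and 46.8 and 54.8 CPM in *Thrb*-KO. *Rara*, the retinoic acid receptor α, averaged 10.2 and 19.1 CPM in wild type (log2 0.86, adjusted p = 3.77e-04) and 16.6 and 18.4 CPM in *Thrb*-KO. For all 3, named because they were called, the wild type groups lay apart, as did those of 17.4% of all genes. Their response was smaller in *Thrb*-KO by 0.99, 0.96 and 0.72 on the log2 scale (limma interaction, adjusted p = 0.0327, 4.25e-04 and 0.0469). For this difference limma called 4.26% of all genes. Of the 10 partners, limma and DESeq2 called 3 for it and edgeR 2. In replicates 3 to 5 alone, only the response of *Ppard* passed the test of this difference. None of the 10 was called for T3 in *Thrb*-KO by limma, edgeR or DESeq2. For this contrast limma called 1.01% of all genes, and 1 of the 10 had an unadjusted limma p under 0.05. Between genotypes *Vdr* was lower in *Thrb*-KO, by −2.49 in hypothyroid and −3.48 in hyperthyroid mice, *Rara* was 0.67 higher in hypothyroid and *Ppard* differed by −0.61 in hyperthyroid mice (log2). Thus 2 of the 10 were called for genotype in each condition, where 3.02% of all genes were in hypothyroid and 4.86% in hyperthyroid mice.

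The corepressors and coactivators that TR and RXR pairs recruit, 15 of 15 tested, were not called by limma for T3 in wild type. Of all genes, limma called 9.46% in this contrast, and 4 of the 15 had an unadjusted p under 0.05. The median log2 difference of the 15 was 0.00, beside −0.04 over all genes. edgeR and DESeq2 each called 2 of the 15, beside 10.6% and 10.9% of all genes with these tools.

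Among genes that supply or carry T3 in the cell, 5 of 9 were tested. *Dio2*, the deiodinase that makes T3 from thyroxine, fell by 4.81 on the log2 scale with T3 in wild type (limma, adjusted p = 2.11e-14) and by 2.00 in *Thrb*-KO (adjusted p = 6.35e-09). Its means were 1069 and 36.9 CPM in hypothyroid and hyperthyroid wild type, and 689 and 172 CPM in *Thrb*-KO. The responses differed by 2.81 (adjusted p = 1.00e-08). *Slc7a8*, an amino acid transporter that also carries thyroid hormone, fell by 1.63 in wild type (adjusted p = 1.78e-09), and its response differed by 1.37 between genotypes (adjusted p = 4.28e-06). *Dio2* was thus called in both genotypes, and *Thrb* in wild type alone. The median log2 difference of the 5 was −0.20 in wild type, beside −0.04 over all genes.

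Genes near *Thra*, *Thrb*, *Rxrb* and *Rxrg* were listed to see whether a region moved with a member, and 12 of 14 were tested. The list held no neighbour of *Rxra*, so that region was not examined. *Rara*, near *Thra*, was the only one of the 12 called for T3 in wild type, where 9.46% of all genes were, so the count was near that of any genes. With *Nr1d1*, 2 of the 12 had an adjusted p under 0.05 at any size, where 19.3% of all genes did. No neighbour was called for T3 in *Thrb*-KO by limma, edgeR or DESeq2. For this contrast limma called 1.01% of all genes, and 2 of the 12 had an unadjusted limma p under 0.05. The median over the 12 was 0.06 in wild type (log2).

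Other pituitary cell markers were given as values beside these results. With T3, *Gh* of somatotrophs was 1.03 higher in wild type (log2), and *Prl* of lactotrophs was higher by 1.70 in wild type and 1.63 in *Thrb*-KO. *Gh* was called neither for T3 in *Thrb*-KO nor for the difference of the responses, so a different response between genotypes was not shown. The summed RNA of the 2 somatotroph markers was 57874 to 73859 CPM in hypothyroid and 83010 to 115091 CPM in hyperthyroid *Thrb*-KO libraries. In wild type it was 48444 to 66337 and 87484 to 159203 CPM. *Pou1f1*, the factor shared by thyrotrophs, somatotrophs and lactotrophs, was called by limma only for genotype under T3, at 0.63. It was not called there with edgeR, DESeq2 or TMM scaling, nor in replicates 1 and 2 alone. Of the 4 gonadotroph markers limma called *Nr5a1*, for genotype under T3 alone, at 0.60. In that contrast edgeR, DESeq2, TMM scaling and replicates 1 and 2 alone called no gonadotroph marker. No corticotroph, endothelial, blood or neural marker was called by limma in any contrast, where 1.01 to 9.46% of all genes were. For T3 in wild type, edgeR called 1 neural marker, and limma on replicates 3 to 5 alone called 1 endothelial marker. Of the remaining lists, *Col1a1* of fibroblasts was −0.73 for T3 in wild type. *Pcsk2* of the intermediate lobe was −0.68, *Csf1r* of immune cells −0.77 and *Col1a2* −0.64 for genotype in hypothyroid mice. Stem and folliculostellate markers had no call. The part of these markers in the receptor results was not tested.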

How the data were processed

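RNA-seq had been run on pituitary libraries of 4 groups, mapped by the authors with BBMap to RefSeq transcripts of mm9 (the submitters' processing notes list STAR), and deposited as CPM per transcript without a filter on low values. Whole reads were recovered from the CPM steps (lowest share of whole values 99.99%, tolerance 0.01), so the count of reads per library is known. For ChAP-seq the authors called peaks with SICER 1.1 on merged libraries. The deposited lists give the count of HAB;BirA and of control reads, the authors' fold (a ratio of the 2 after their scaling), and a p-value with its false discovery rate per peak. In the ATAC list the authors give an adjusted p-value alone. These p-values and folds hold the authors' comparisons and are not printed. Genes were grouped from the sample labels.

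For each gene the transcript row with the highest mean CPM was kept. The limma test (trend) ran on log2(CPM + 1) for genes over 1 CPM in each of the 18 libraries, in 1 model of 4 groups, with Benjamini-Hochberg adjustment over 13145 genes. A fold on this scale understates the change of low genes. Libraries pooled 3 pituitaries each, and p-values measure the spread between these pools. Levels per kb used GENCODE vM1 lengths of 2452 (*Thra*), 6081 (*Thrb*), 4905 (*Rxra*), 2623 (*Rxrb*) and 2110 bases (*Rxrg*). Peaks within 20 kb of a gene body (union of GENCODE transcripts on mm9) were assigned to it, and overlaps needed 1 base. Exact permutation tests were two-sided. Same-numbered libraries deviated together in all 25 pairs (r = 0.130 to 0.815), which the library sets share. In most pairs the same-numbered library was not the most similar one of its group. The replicate number was therefore treated only as a possible pairing, and a replicate block was run as an alternative. No call on the 5 genes changed with it. For the ratio and the share, signs were permuted within same-numbered pairs, an alternative chosen after seeing the data. limma was tested on simulated data.

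The members, gene lists and tests were chosen with earlier results of these data known. Genes named are the 5 members, the 3 genes most correlated with each, called genes of the lists (at most 4 per list and contrast), and *Lars2*. *Nr1d1* and *Slc39a7* are named as neighbours or list genes outside this rule, after their values were seen, as is the row difference of *Thrb*. Treated ChAP-seq, histone ChIP-seq and signal tracks were not analysed here, and some results on listed genes are not reported here. The fits used limma 3.58.1, DESeq2 1.42.0 and edgeR 4.0.16 in R 4.3.3, and the other steps pandas 2.3.3, numpy 2.4.6, pysam 0.24.0, scipy 1.17.1 and matplotlib 3.10.9 in Python 3.11.15.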

Additional observations from a re-analysis of the deposited data

Results flagged for a closer look

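The response of *Thrb* RNA to T3 differed between genotypes by an interaction test (log2 1.26, limma, adjusted p = 3.22e-04), with *Thrb* RNA lower under T3 in wild type and within the spread of the libraries in *Thrb*-KO. No single library stood apart by Dixon's test among the 28 groups of values examined, of which chance would flag about 1 in 20. Closest to a flag was *Thrb* in replicate 4 of hypothyroid wild type, at 297 CPM. Its gap was 0.823 of the range, where 0.829 was needed. With so few libraries per group the test can flag only extreme values. No explanation was weighed.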

How the results depend on the processing

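The *Thrb* calls were made again under each of 32 alternatives. The T3 change in wild type ran from −1.64 to −0.99 over 14 alternatives of method and −1.41 to −1.15 with 1 library left out, and the difference of the responses from 1.05 to 1.50 and 1.09 to 1.35. With the replicate block the 3 *Thrb* values were −1.32, 1.26 and 1.38 (limma, adjusted p = 4.23e-07, 7.82e-05 and 5.80e-07), and the number of members called was 1 in each, as without it. With no fold limit, 3 members passed for T3 in wild type and 3 for genotype under T3 (*Thrb*, *Thra* and *Rxrg*). In replicates 3 to 5 alone, 2 were called for genotype under T3. The log2 ratio of *Thrb* to *Thra* for T3 in wild type moved from −0.87 to −0.52 in replicates 1 and 2 and −1.23 in replicates 3 to 5. In *Thrb*-KO it moved from 0.06 to 0.35 and −0.13, and between hypothyroid genotypes from −0.12 to 0.0864 in replicates 1 and 2. The *Rxrg* share between hypothyroid genotypes went from 0.49 to −2.71 points in replicates 3 to 5. Pituitary peaks numbered 9 over gene bodies and 23 within 100 kb, cortex peaks 3 and 8, and ATAC peaks 4 within 100 kb and 1 at the stricter threshold. Repeats were found in 0 of 15 pituitary peaks at 1 mismatch and 5 at 3. The cause of these shifts was not tested, beyond the construction of each setting. With TMM scaling, calls for T3 in wild type were 613 higher and 602 lower rather than 509 and 735, and for genotype under T3 247 and 374 rather than 334 and 305. Several values that passed no test crossed 0, and no called value did. For *Thrb*, T3 in *Thrb*-KO was 0.0549 in replicates 1 and 2, and genotype in hypothyroid mice −0.0543 in replicates 3 to 5 (log2). For *Rxra*, the difference of the responses was −0.0418 in replicates 1 and 2, −0.000824 with edgeR and −0.00474 with DESeq2, and −0.138 to 0.197 with 1 library left out. The T3 difference of *Rxra* with 1 library left out was −0.244 to 0.0905 in wild type, positive without hyperthyroid replicate 3 alone, and −0.103 to 0.000897 in *Thrb*-KO. For *Rxrb*, T3 in *Thrb*-KO was −0.0635 in replicates 1 and 2, and the difference of the responses 0.114 in replicates 3 to 5 and −0.105 to 0.0382 with 1 library left out. Genotype under T3 for *Rxrb* was −0.0765 in replicates 1 and 2, −0.0292 with TMM scaling, −0.0301 with edgeR, −0.0325 with DESeq2, and −0.00604 to 0.137 with 1 library left out. With 1 library left out, the log2 ratio of *Thrb* to *Thra* was −0.016 to 0.127 for T3 in *Thrb*-KO and −0.218 to 0.0375 between hypothyroid genotypes, and the *Rxrg* share between hypothyroid genotypes −1.56 to 2.79 points. A replicate block within same-numbered pairs, chosen after seeing the data, passed no test on the ratio or the share, where 4 and 5 pairs cannot reach 0.05.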
